A study of Mus musculus with 3 samples.

Results

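The genes described here encode the machinery that copies DNA and supplies its building blocks. They were chosen by name from a list of 40 genes that covers origin licensing, the replicative helicase, the polymerases and primase, the sliding clamp and its loader, Okazaki fragment joining, nucleotide synthesis and histone supply, with the transcription factor E2f1. Of these, 39 were read by a probe set with a single gene symbol among the 18193 genes on the array, and Chaf1a was not read. Their messenger RNA was measured in embryoid bodies, which are floating clusters of embryonic stem cells that begin to differentiate, collected on day 7. All bodies came from mouse stem cells of strain 129S7/SvEv Brd-Hprt b-m2, so every group shares that background, and each group carried a form of human BRCA1. The WT bodies carried wild-type BRCA1 and the MI bodies carried BRCA1 with M1652I. The RQ bodies carried R1699Q according to the series design, whereas the array's own label writes R1669Q. Each of the 3 genotypes was hybridized to 1 Affymetrix array, so no difference below has a replicate check and no test was run. Neither the clone nor the number of cultures behind an array is given in the labels, and feeder cells were removed by letting them attach to gelatin before the bodies were formed.

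Replication starts when the origin recognition complex, with Cdc6 and Cdt1, loads rings of Mcm2 to Mcm7 onto DNA, a step that geminin (Gmnn) blocks once S phase has begun. Cdc45 and the GINS complex then turn the ring into a moving helicase, the polymerase alpha-primase complex lays down primers, and the polymerases delta and epsilon extend them while held by the clamp Pcna. Ribonucleotide reductase, thymidylate synthase and thymidine kinase feed the fork with deoxynucleotides, and many genes of this set are transcribed under E2F factors at the entry into S phase. Embryonic stem cells cycle fast with a large share of cells in S phase, and cells that differentiate slow down. In a bulk sample, fewer cells of a type and less RNA per cell cannot be told apart.

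Values are the deposited log2 signals, and a difference is the log2 signal of the first array named minus that of the second. The chosen probe sets had mean signals over the 3 arrays from 6.37 for Cdc45 to 11.60 for Pcna, all at or above the median of all probe sets (6.31), and no detection calls were used here. Signals were less spread on the MI array (SD 1.06 over probe sets) than on the WT array (1.17) and the RQ array (1.17). At a mean signal of 10 and above, the median difference from WT over all genes was -0.38 in MI and -0.06 in RQ. Level-corrected differences are therefore given for MI beside the deposited ones in the paragraphs on MI and for some genes before them. Signals given gene by gene are as deposited. A level-corrected difference is the difference minus a lowess curve of the difference on signal level, fitted over all 18193 genes. The genotype could not be checked on these arrays, whose probe sets read mouse genes. The Actb probe set at the 3′ end read higher than that at the 5′ end, a sign of how intact the RNA was, by 0.64 (WT), 0.78 (MI) and 0.52 (RQ), and the corresponding Gapdh differences were 0.12, 0.05 and 0.11. The hybridization spikes, which are bacterial and phage transcripts added to each sample, had a median difference from WT of -0.64 in RQ and -0.80 in MI.

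Markers of cell types differed between the arrays in the same comparisons as the replication genes, and their part in the differences below was not tested. Over all genes 4.64% were at least 1.5-fold higher than WT in RQ and 2.93% lower, and 1.36% and 5.67% in MI. At signal levels of 9 to 10 and of 10 and above, 13.5% and 8.69% were that much higher in RQ. At the same levels 32.3% and 27.2% were that much lower in MI as deposited. Of 14 markers of pluripotent stem cells, 8 exceeded WT by 1.5-fold or more in RQ and 0 lay as far below it, with a median difference of 1.02, and their summed linear signal was 24444 (WT), 23119 (MI) and 36205 (RQ). Dppa2 (3.17), Zfp42 (1.93), Nr0b1 (1.92) and Klf2 (1.68) led them. Pou5f1 (-0.14), Dppa5a (-0.15) and Utf1 (-0.09), chosen after their values were seen, were below WT in RQ. In MI 4 of these markers were at least 1.5-fold higher than WT and 2 as much lower, with a median of -0.007. After the level correction the MI counts were 5 and 2 (background 1.84% and 4.28%). Of 9 parietal endoderm markers, 8 lay 1.5-fold or more below WT in RQ and 6 in MI, and their summed signal was 13399 (WT), 2214 (MI) and 1872 (RQ). Of 13 yolk sac and visceral endoderm markers 4 were at least 1.5-fold lower on each mutant array, and the sums were 3855, 1269 and 1099. Of 13 fibroblast and feeder markers 4 were at least 1.5-fold higher in MI and 0 in RQ. Their sum was 2750 (WT), 5461 (MI) and 2479 (RQ), with S100a4 (3.31), Dcn (2.96), Vim (2.83) and Col1a2 (1.64) in front. No mesoderm, neural or blood marker passed 1.5-fold in any of the 3 comparisons.

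The RQ and MI comparisons share the WT array, so they are not independent of each other. In RQ bodies most of the replication genes read higher than in WT, by modest amounts. Of the 39 genes, 34 were above 0 and 5 below, and the median difference was 0.37, or 1.29-fold. Over all genes 49.1% were above 0, with a median of -0.00. At a limit of 1.5-fold, 9 members were higher (background 4.64% of all genes) and 0 were lower (background 2.93%). Among the 11969 genes with a mean signal at or above the median, 6.89% passed the limit upwards. The 9 members were Pole2, Rrm1, Rrm2, Gins1, Mcm10, Orc2, Cdc6, Pola1 and Mcm7, and the 5 below 0 were Gins2, Pold1, Orc1, Lig1 and Rfc2. When all probe sets of a gene were averaged, 5 members passed the limit upwards (background 2.7%). RQ was the highest of the 3 arrays for 31 members (background 25% of all genes) and the lowest for 1 (background 39.1%), Rfc2. Among the 11969 genes at or above the median signal these shares were 31% and 33.4%, and they were not split further by level. Levels of 9 to 10 and of 10 and above hold 11 and 5 members. There RQ exceeded MI for 82.6% and 84.7% of all genes, and WT for 53.4% and 45%.

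**Figure D1:**
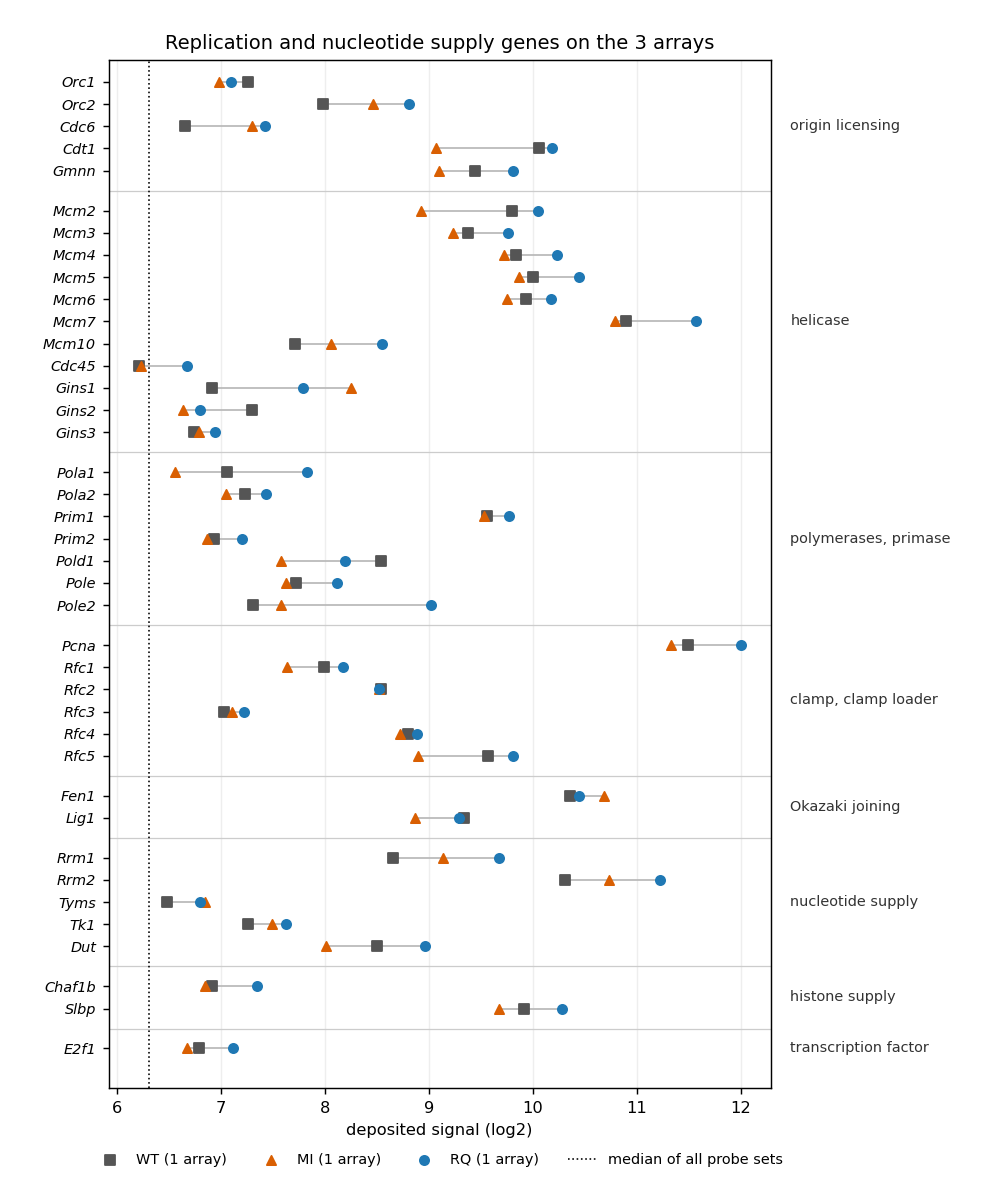
Deposited log2 signal of 39 replication and nucleotide supply genes on the WT (square), MI (triangle) and RQ (circle) arrays, 1 array each, grouped by role, with a dotted line at the median of all probe sets (6.31). The RQ circle lies farthest right for 31 genes, and Pole2, Rrm1 and Pola1 show wide gaps between RQ and WT.

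The licensing factors were not alike. Orc2, a core subunit of the origin recognition complex, read 7.98 (WT), 8.46 (MI) and 8.81 (RQ). Cdc6, the ATPase that helps to load the Mcm ring, read 6.65, 7.30 and 7.42 in the same order. Both were lowest in WT, with RQ differences of 0.82 for Orc2 and 0.77 for Cdc6. Cdt1, the partner of Cdc6, read 10.05 (WT), 9.06 (MI) and 10.18 (RQ), so WT and RQ were close and MI stood apart below them. Its inhibitor Gmnn had the same order as deposited, with 9.44, 9.10 and 9.81. After the level correction the MI difference was -0.68 for Cdt1 and -0.06 for Gmnn. Orc1, an ATPase subunit of the complex, read 7.26, 6.99 and 7.10, and its second probe set gave an RQ difference of 0.47 where the chosen one gave -0.17.

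The 6 subunits of the Mcm ring were each above WT in RQ, by 0.25 (Mcm2 and Mcm6) to 0.68 (Mcm7). Mcm7 read 10.89 (WT), 10.79 (MI) and 11.57 (RQ), and its 4 probe sets gave RQ differences of 0.68 to 0.97. Mcm3 read 9.37, 9.23 and 9.76, Mcm4 read 9.84, 9.72 and 10.23, and Mcm5 read 9.996, 9.86 and 10.44. Mcm6 read 9.93, 9.75 and 10.18. In these 5 subunits WT and MI lay close together as deposited, with RQ above both. After the level correction their MI differences were 0.14 (Mcm3), 0.21 (Mcm4), 0.21 (Mcm5), 0.16 (Mcm6) and 0.30 (Mcm7). The corrected differences of RQ against MI were 0.18, 0.15, 0.22, 0.066 and 0.41 in the same order. Mcm2 read 9.80 (WT), 8.92 (MI) and 10.05 (RQ), with MI further below WT than for the other subunits on the probe sets used. The MI difference depended on the probe set, since a second one gave -0.40 for Mcm2 and a second one for Mcm5 gave -0.60 where the chosen one gave -0.13. Mcm10, which helps to fire the loaded helicase, read 7.72, 8.06 and 8.55, a difference of 0.83 in RQ. A second Mcm10 probe set, not marked as matching several transcripts, gave -0.039, so the reading of this gene rests on 1 probe set.

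Of the GINS subunits, which bind the helicase as one complex, Gins1 and Gins2 read in opposite directions. Gins1 was 6.92 (WT), 8.25 (MI) and 7.79 (RQ), so both mutant arrays were above WT. Gins2 was 7.30, 6.64 and 6.80, so both were below WT, and its second probe set gave -0.43 in RQ and -0.75 in MI. Gins3 lay between 6.75 and 6.95 on all 3 arrays, and Gins4, a subunit outside the list that was chosen after its values were seen, differed from WT by 0.44 in RQ and -0.03 in MI. Cdc45, their partner, read 6.21 (WT), 6.24 (MI) and 6.68 (RQ), close to the median of all probe sets.

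Pole2, the second subunit of the leading-strand polymerase epsilon, had the largest difference of the members. It read 7.31 (WT), 7.57 (MI) and 9.02 (RQ), a 3.27-fold difference of RQ over WT that ranked 21 of 18193 genes from the top. Its second probe set lay below the median of all probe sets on each array (5.61, 5.71 and 5.77). The catalytic subunit Pole read 7.72, 7.62 and 8.11. Pola1, the catalytic subunit of polymerase alpha, read 7.06 (WT), 6.56 (MI) and 7.83 (RQ), with MI and RQ on opposite sides of WT. Its partners moved less, since Pola2 read 7.23, 7.05 and 7.44, Prim1 read 9.56, 9.53 and 9.77, and Prim2 read 6.94, 6.86 and 7.21. Pold1, the catalytic subunit of the lagging-strand polymerase delta, was highest in WT, with 8.54 against 7.58 in MI and 8.19 in RQ, and both of its probe sets were below WT in RQ (-0.35 and -0.49).

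The clamp Pcna read 11.49 (WT), 11.32 (MI) and 12.00 (RQ), a difference of 0.51 in RQ. The loader subunits Rfc1 to Rfc5 lay between -0.02 (Rfc2) and 0.24 (Rfc5) in RQ, closer to WT than the clamp itself. Rfc1, the large subunit, read 7.99 (WT), 7.64 (MI) and 8.18 (RQ), and Rfc5 read 9.56, 8.90 and 9.81, so MI was lowest for both. Rfc3 read 7.03, 7.11 and 7.22, and Rfc4 read 8.80, 8.72 and 8.88, with the 3 arrays close together. Rfc2 read 8.54, 8.52 and 8.52, with an MI difference of 0.16 after the level correction. Of the genes that join Okazaki fragments, the DNA ligase Lig1 read 9.33, 8.87 and 9.29. The flap nuclease Fen1 read 10.36, 10.68 and 10.44, a difference of 0.08 in RQ, but its other probe set gave 1.07 and the mean of both 0.58.

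All 5 nucleotide supply genes were above WT in RQ on the probe sets used, with a median of 0.46. Rrm1, the large subunit of ribonucleotide reductase, read 8.66 (WT), 9.13 (MI) and 9.68 (RQ). Rrm2, the small subunit whose amount limits the enzyme in S phase, read 10.30, 10.73 and 11.22. On these probe sets both subunits were lowest in WT and highest in RQ, 2.03-fold for Rrm1 and 1.88-fold for Rrm2. The 3 probe sets of Rrm2 gave RQ differences of 0.91, 1.06 and 1.34, whereas the next probe set of Rrm1 read 8.07, 8.003 and 8.32, a difference of 0.26 in RQ with MI lowest. Tk1, the S phase thymidine kinase, read 7.26, 7.49 and 7.63, and thymidylate synthase (Tyms) read 6.48, 6.85 and 6.80. The other probe sets of Tyms had mean signals below the median of all probe sets. They gave RQ differences of 0.05, -0.03 and 0.07, and MI differences of 0.007, 0.04 and 0.07. Dut, which removes dUTP before it can enter DNA, read 8.50, 8.01 and 8.96. Its MI difference was -0.49, or -0.36 after the level correction. The second probe set of Dut, not marked as matching several transcripts, gave an MI difference of 0.026.

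Among the remaining members, Chaf1b, a subunit of the chaperone that places new histones behind the fork, read 6.91 (WT), 6.84 (MI) and 7.34 (RQ). Slbp, which binds histone messages in S phase, read 9.91, 9.67 and 10.28. E2f1, an activator of this gene set, read 6.79, 6.68 and 7.11. As deposited, WT and MI were close for all 3 genes, and RQ was above both. After the level correction the MI differences were -0.16 (Chaf1b), 0.090 (Slbp) and -0.21 (E2f1).

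**Figure D2:**
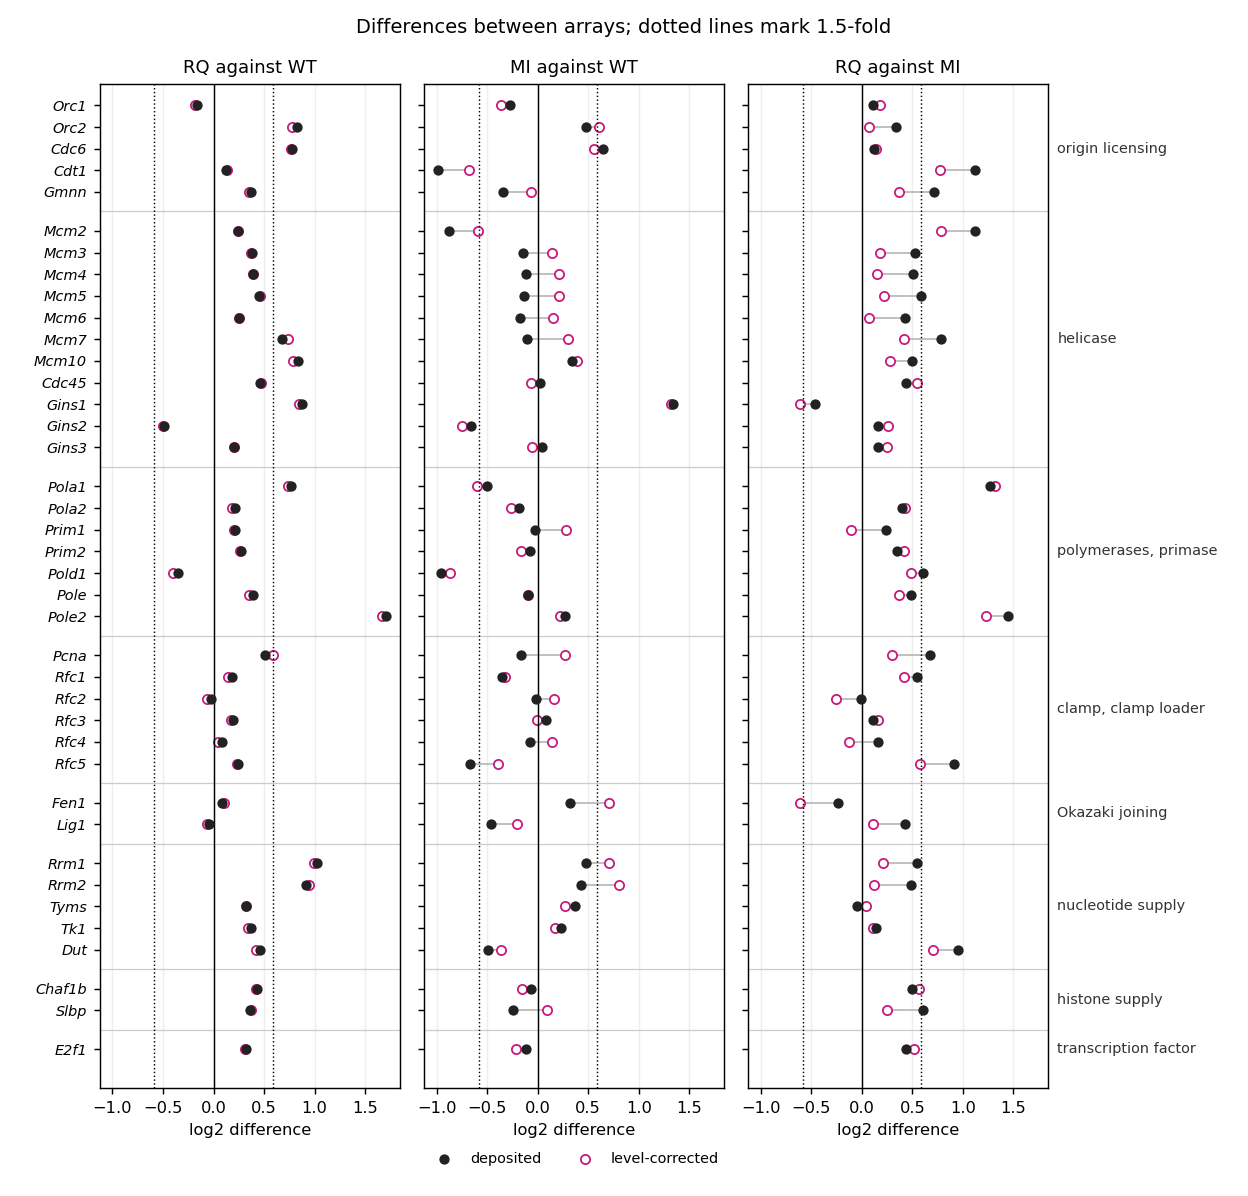
Log2 differences of the 39 genes for RQ against WT, MI against WT and RQ against MI, as deposited (filled) and after correction for signal level (open), with dotted lines at 1.5-fold. In RQ against WT, 34 genes lie right of 0 and the correction moves them little, whereas in MI against WT the corrected points of strong genes such as Pcna and Mcm7 lie on the other side of 0.

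The promoters of these genes were searched for words that E2F factors and other S phase regulators bind. The table used, from RefSeq with build GRCm38.p6, gives 250 bases before to 50 after a gene's start, and 32 of the 39 members matched. The E2F words searched on both strands were TTTGGCGC, TTTCCCGC, TTTGCCGC and TTTCGCGC, each of which can overlap a word on the other strand. At least 1 word lay in the windows of 13 of the 32 members (40.6%), against 546 of 14367 array genes with a window used here (3.80%) and 3.20% of their windows. The windows used did not cover every chromosome, so genes on an uncovered chromosome are absent from these counts. The word CCAAT, which the factor NF-Y binds, was in 18 of 32 members (56.2%) against 42.0% of genes, and the GC box GGGCGG in 24 (75%) against 57.5%. The stretches below show upstream sequence of 5 members that hold an E2F word before the start, with those words in capitals, and of the 2 ribonucleotide reductase genes, whose windows hold no E2F word and whose capitals mark CCAAT. They are Cdc6 (chr11:98907993-98908112, + strand), Pola1 (chrX:93632194-93632313, - strand), Mcm5 (chr8:75109336-75109455, + strand), Mcm6 (chr1:128359716-128359835, - strand), Mcm7 (chr5:138171949-138172068, - strand), Rrm1 (chr7:102441575-102441694, + strand) and Rrm2 (chr12:24708134-24708253, + strand), each 120 bases written 5′ to 3′ on the gene's strand.
Cdc6: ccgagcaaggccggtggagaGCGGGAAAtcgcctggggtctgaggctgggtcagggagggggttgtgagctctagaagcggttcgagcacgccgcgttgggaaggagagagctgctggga
Pola1: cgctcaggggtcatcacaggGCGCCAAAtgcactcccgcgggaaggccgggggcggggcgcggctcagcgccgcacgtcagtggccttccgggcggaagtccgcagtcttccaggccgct
Mcm5: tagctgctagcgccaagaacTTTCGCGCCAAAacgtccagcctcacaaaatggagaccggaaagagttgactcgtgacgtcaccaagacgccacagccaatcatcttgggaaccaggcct
Mcm6: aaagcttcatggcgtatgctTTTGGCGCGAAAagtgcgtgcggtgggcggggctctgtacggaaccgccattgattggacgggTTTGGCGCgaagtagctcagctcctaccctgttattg
Mcm7: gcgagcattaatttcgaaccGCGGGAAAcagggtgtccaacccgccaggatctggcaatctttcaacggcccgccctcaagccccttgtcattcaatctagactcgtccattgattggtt
Rrm1: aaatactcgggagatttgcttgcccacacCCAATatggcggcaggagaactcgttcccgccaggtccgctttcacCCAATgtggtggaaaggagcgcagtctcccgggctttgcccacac
Rrm2: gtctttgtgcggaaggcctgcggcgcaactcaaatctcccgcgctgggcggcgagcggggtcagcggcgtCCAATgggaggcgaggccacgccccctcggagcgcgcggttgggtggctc
In Mcm5 and Mcm6 a word on each strand overlaps to form a single run, and Mcm6 has a further word nearer the start. A match is a description of these letters and not a shown binding site.

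Members with and without an E2F word were both mostly above WT in RQ. In RQ against WT the 13 members with an E2F word had a median of 0.25, with 10 above 0, and the 19 without it had a median of 0.37, with 19 above 0. Pola1, Cdc6 and Mcm7, shown above, and Pole2, with a word after the start, were at least 1.5-fold higher in RQ, as were Rrm1 and Rrm2 without one. Gins2 and 6 other members had no entry in the promoter table.

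In MI bodies the replication genes were divided, and their balance depended on the correction for signal level. As deposited, 13 members were above WT (background 63.5%) and 26 below, with a median of -0.10. The background was lower for strong signals, at 33.1%, 24.6% and 18.9% for levels of 8 to 9, 9 to 10 and 10 and above. After the correction 20 members were above 0 (background 49.9%) and 19 below, with a median of 0.090. At 1.5-fold, 2 members were higher as deposited (background 1.36%) and 5 lower (background 5.67%). The deposited share lower was 7.35%, 21.4%, 32.3% and 27.2% of all genes at levels of 7 to 8, 8 to 9, 9 to 10 and 10 and above. With the correction 5 members were higher (background 1.84%) and 5 lower (background 4.28%). After quantile normalization of the arrays the counts were 6 (background 2.85%) and 3 (background 3.47%). With arrays centred on their medians they were 1 (background 1.01%) and 5 (background 6.82%). MI was the lowest of the 3 arrays for 25 members (background 23.7%) and the highest for 3 (background 50.4%), Gins1, Fen1 and Tyms. Among the 11969 genes with a mean signal at or above the median, MI was lowest for 30.4% and highest for 42.6%. These shares were not split further by level. Strong genes mostly read lower in MI than in RQ as well, for 82.6% of genes at levels of 9 to 10 and 84.7% at 10 and above.

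The 7 members past 1.5-fold in MI as deposited kept their direction under each scaling tried. Those with several probe sets also kept it under each probe set rule. Cdc6 and Rfc5 have 1 probe set each, so these rules could not change their direction. Cdc6 drops out when probe sets marked as matching several transcripts are left out. Gins1 was the highest, 2.52-fold above WT (1.34, and 1.32 after correction). Cdc6 was 0.65 above WT, and 0.56 after correction. On the other side, Cdt1 was 1.99-fold below WT (-0.99, and -0.68 after correction), Pold1 1.95-fold below (-0.96 and -0.87), Mcm2 1.84-fold below (-0.88 and -0.59) and Gins2 1.57-fold below (-0.66 and -0.75). These genes act at different steps, from loading of the helicase to synthesis of the lagging strand. Rfc5 was at -0.67, and -0.39 after correction. Pola1 was at -0.50 and passed the limit with the correction (-0.60).

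Correction changed the reading of the strong signals most. Pcna went from -0.16 to 0.27, Mcm7 from -0.10 to 0.30 and Prim1 from -0.03 to 0.28. Rrm1 (0.47, corrected 0.71) and Rrm2 (0.42, corrected 0.81) were above WT either way, as were Fen1 (0.32 and 0.71) and Orc2 (0.48 and 0.60), and these 4 passed 1.5-fold after correction alone. Genes at a signal level of 9 to 10 had a median MI difference of -0.35 over 668 genes, where the 11 members had -0.24. At levels of 10 and above the median was -0.38 over 518 genes and -0.10 over 5 members. For RQ against WT the corresponding medians over all genes were 0.03 and -0.06, and those of the members 0.25 and 0.51.

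**Figure D3:**
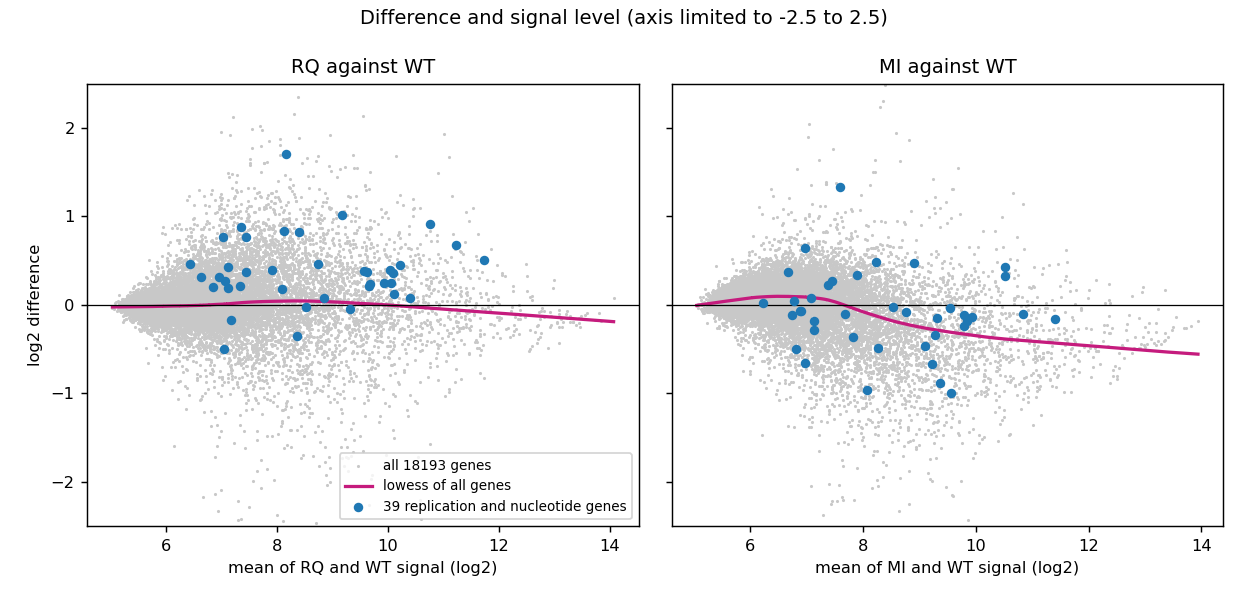
Log2 difference against the mean log2 signal of the arrays compared, for all 18193 genes (grey), the 39 replication and nucleotide supply genes (blue) and the lowess curve of all genes (pink), with the vertical axis limited to -2.5 to 2.5. The curve stays near 0 in RQ against WT and bends below 0 at strong signals in MI against WT, where many blue points lie between the curve and 0.

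Set against MI directly, RQ read higher for 35 members (background 36.8%) and lower for 4, with a median of 0.49. The background was higher for strong signals, at 73.4%, 82.6% and 84.7% for levels of 8 to 9, 9 to 10 and 10 and above. After correction 34 members were above 0 (background 49.9%) and their median was 0.25. At 1.5-fold, 11 members were higher (background 6.72%), namely Pole2, Pola1, Mcm2, Cdt1, Dut, Rfc5, Mcm7, Gmnn, Pcna, Pold1 and Slbp, and 0 were lower (background 1.1%). The share higher was 10.5%, 26%, 32% and 22.6% of all genes at levels of 7 to 8, 8 to 9, 9 to 10 and 10 and above. With the correction 5 members were higher (background 4.53%) and 2 lower (background 1.68%), with Gins1 and Fen1 both at -0.61. Pole2 (1.44, corrected 1.23), Pola1 (1.27 and 1.32), Mcm2 (1.12 and 0.78), Cdt1 (1.12 and 0.77) and Dut (0.95 and 0.70) remained past the limit on both scales. RQ was above MI for the ribonucleotide reductase subunits, by 0.55 for Rrm1 and 0.49 for Rrm2 as deposited and by 0.21 and 0.12 after correction. The second probe set of Dut gave 0.27, under the limit.

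Several genes have more than 1 probe set with a mean signal at or above the median, which gives a check within each array but not between samples. The 39 genes had 91 probe sets, and 70 of them reached that level. In RQ against WT, 59 of the 70 were above 0 against 52.3% of 18649 probe sets at that level, and 17 were at least 1.5-fold higher against 7.46%. Of 24 genes with several such probe sets, 18 had them all on one side of 0 in RQ against WT and 15 in MI against WT. The widest disagreement was in Fen1, where the chosen probe set gave 0.08 and another gave 1.07 in RQ. Mcm3 ranged from 0.25 to 1.14 and Slbp from -0.52 to 0.37. Averaging all probe sets of a gene, weak ones included, gave RQ differences of 0.94 for Pole2, 0.50 for Gins1, 0.36 for Pola1 and 0.30 for Rrm1, and an MI difference of 0.76 for Gins1.

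**Figure D4:**
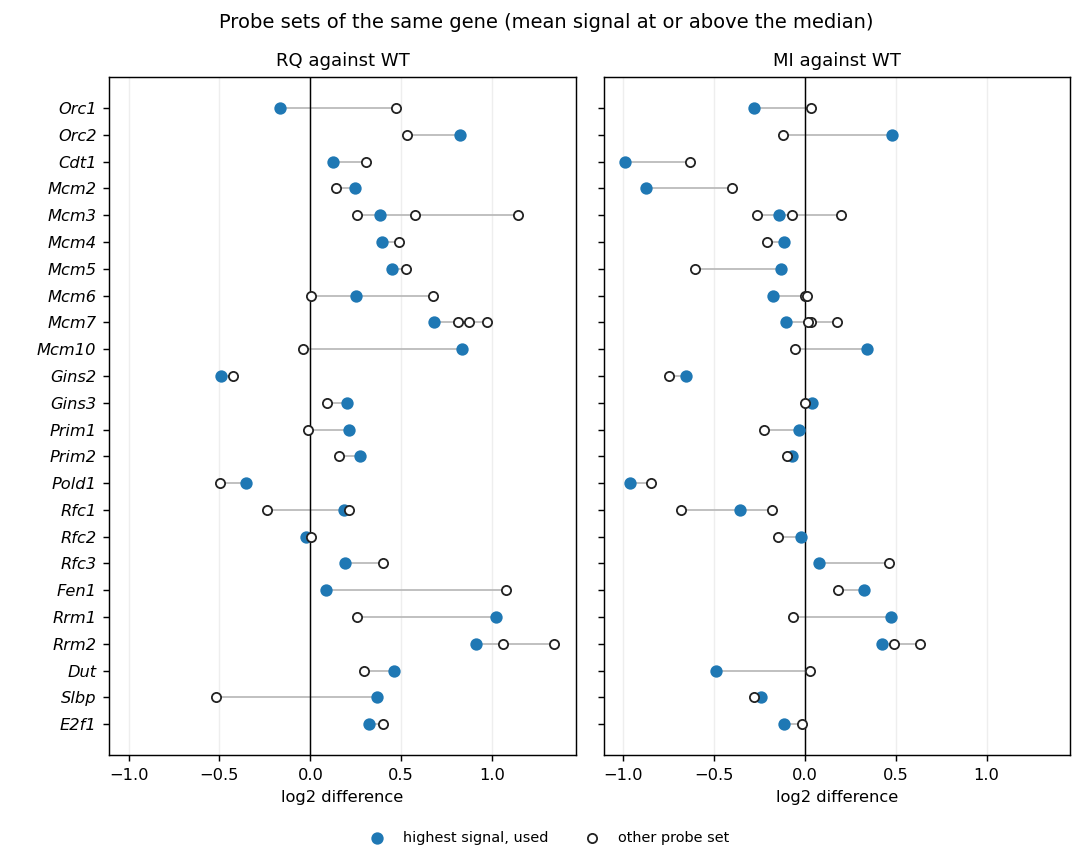
Log2 differences of each probe set with a mean signal at or above the median, for the 24 genes with more than 1 such probe set, in RQ against WT and MI against WT; the filled point is the probe set used. Mcm7 and Rrm2 have all their points right of 0 in RQ against WT, whereas those of Fen1, Mcm10 and Slbp are spread.

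Other genes of the fork were also mostly above WT in RQ, 16 of 18 in the first list below and 17 of 23 in the second. Of the 18 fork protection and checkpoint genes, 8 exceeded WT by 1.5-fold or more in RQ and 0 lay as far below it, with a median of 0.52. The background was 49.1% above 0 and 4.64% higher over all genes, and 9.37% higher for genes at signal levels of 7 to 8 and 14.4% at 8 to 9. The single-strand binding subunit Rpa1 differed by 1.01, the checkpoint clamp subunit Hus1 by 1.05, and Tipin and Timeless, which form a complex that steadies the fork, by 0.89 and 0.73. Of the 23 further origin and fork subunits, 6 were at least 1.5-fold higher and 0 as much lower (median 0.27), among them Dbf4 (0.89), the activator of the kinase that fires origins, Skp2 (0.68), Dna2 (0.63) and Orc6 (0.59). With the level correction 2 of these 23 passed the limit upwards (background 4.33% of all genes, and 6.42% of those at or above the median signal). In MI against WT these lists had medians of 0.10 and -0.06, and 1 gene of each passed 1.5-fold, upwards in the first and downwards in the second. Over all genes 1.36% were that much higher in MI and 5.67% lower. The share lower was 7.35%, 21.4% and 32.3% at levels of 7 to 8, 8 to 9 and 9 to 10.

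Of 23 genes that make purines, pyrimidines and folates, 19 were above WT in RQ (background 49.1%), with a median of 0.29. At 1.5-fold, 7 of them were higher (background 4.64%) and 0 lower (background 2.93%). The share higher was 9.37%, 14.4% and 13.5% of all genes at levels of 7 to 8, 8 to 9 and 9 to 10. Those with a large difference in any comparison included the purine enzymes Pfas (1.17 in RQ against WT) and Gart (0.59), the mitochondrial serine hydroxymethyltransferase Shmt2 (0.95) and the thymidylate kinase Dtymk (0.81). The median in MI was -0.24, and RQ against MI had a median of 0.61 with 15 of 23 genes at least 1.5-fold higher (background 6.72%). That background was 10.5%, 26% and 32% at levels of 7 to 8, 8 to 9 and 9 to 10. After correction the median of the 23 genes was 0.49, with 8 higher and 2 lower (background 4.53% and 1.68%). Salvage genes were split. Pnp, the purine nucleoside phosphorylase, was higher in RQ (1.25), while Aprt (-0.80) and Uck2 (-0.92) were lower in RQ and also in MI (-0.92 and -1.23). Adk, the adenosine kinase, was 0.54 in RQ and -1.26 in MI. Hprt, the salvage enzyme whose b-m2 allele is in the strain's name, was chosen after its values were seen and read 7.14 (WT), 7.74 (MI) and 7.78 (RQ). Whether its probe set lies in the part altered by that allele was not examined. Of histone supply and chromatin assembly genes, 6 of 15 were at least 1.5-fold higher in RQ (background 4.64%) and 0 as much lower (background 2.93%). Of the 15, 11 were above 0 (background 49.1%), with a median of 0.34. The histone chaperone Nasp was at 1.01, the histone message factor Casp8ap2 at 1.08 and the maintenance methyltransferase Dnmt1 at 0.80. Uhrf1, the partner of Dnmt1 at the fork, was at -0.19 in RQ and -1.11 in MI.

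The regulators of S phase entry lay closer to WT in RQ. Of 27 genes of the E2F, RB and G1/S list, 3 were at least 1.5-fold higher in RQ and 1 lower, with a median of 0.05. Over all genes 4.64% were that much higher in RQ and 2.93% lower. The share higher was 9.37%, 14.4% and 13.5% at levels of 7 to 8, 8 to 9 and 9 to 10. Tfdp2, a partner of E2F factors, differed by 1.17 and Mycn by 1.12, while the CDK inhibitor Cdkn1b differed by -0.87 in RQ and -1.26 in MI. Ccnd1 was 2.69 in MI and 0.45 in RQ. The list of repair, translesion and mitochondrial polymerases and their partners had a median of 0.09 in RQ, with Rev1 at 0.99, Tfam at 0.80, Rev3l at 0.65 and Mad2l2 at -0.55. The mitosis list had a median of 0.22 in RQ with 2 of 19 genes at least 1.5-fold higher, against the same background shares. In MI its median was -0.50 with 8 of 19 at least 1.5-fold lower, or -0.35 with 6 lower after correction. Over all genes 5.67% were that much lower in MI as deposited and 4.28% after correction, but at signal levels of 8 to 9 the deposited share was 21.4%, at 9 to 10 it was 32.3% and at 10 and above 27.2%. Nusap1 (-1.05), Ube2c (-1.03), Ttk (-0.95) and Bub1b (-0.75) were among the mitosis genes below WT in MI.

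**Figure D5:**
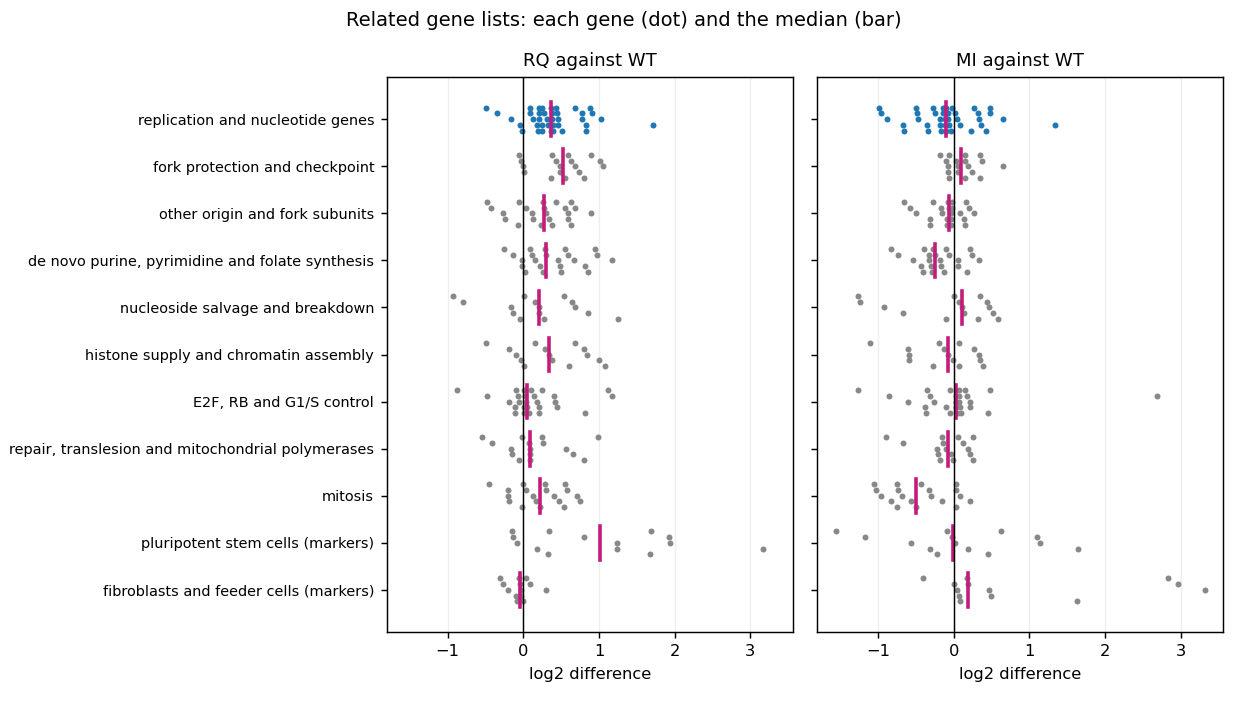
Log2 differences from WT of the 39 members (blue), of 8 related gene lists and of 2 lists of cell type markers (grey), for RQ and MI; each point is a gene, its height within a list has no meaning, and the bar is the median. In RQ the fork lists and the members lie mostly right of 0, whereas in MI the mitosis list lies left of it.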

How the data were processed

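Total RNA (6 ug) from day 7 embryoid bodies of the WT, MI and RQ genotypes was hybridized to 1 Affymetrix array each. The deposited values are log2 signals per probe set, made with RMA and Partek, per the submitters' processing notes; versions and settings are not given in the sources used here. RMA usually equalizes the arrays and pulls small values together, which narrows differences of weak genes. The deposited arrays were not fully equal, with medians of 6.29 (WT), 6.35 (MI) and 6.28 (RQ) and the unlike spreads given above. Of 45101 probe sets, 34945 with a single symbol and no control role were used; 932 carried several symbols and 9211 none. Each gene was read by whichever of its probe sets was strongest on average on the 3 arrays. Differences were subtracted on the log2 scale and corrected for level by lowess (span 0.3, 3 iterations) over all 18193 genes, with Python 3.11.15, numpy 2.4.6, pandas 2.3.3 and statsmodels 0.14.6; the scripts were tested on simulated data. With 1 array per genotype no test was run, and precision is limited by there being so few arrays. The members and gene lists were chosen with earlier results of these data known. All members with a probe set are named, with up to 4 genes of each related list that had the largest absolute difference in any comparison among genes with a mean at or above the median; others are named as chosen after their values were seen. Alternatives changed the scaling, the filter on weak signals, the probe set rule and the fold limit.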

Additional observations from a re-analysis of the deposited data

How the results depend on the processing

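The direction of the RQ against WT median was the same under each alternative tried, from 0.29 with the mean of all probe sets to 0.37. The MI against WT median of -0.10 turned to 0.090 with the lowess correction and 0.14 after quantile normalization; the cause was not tested. The RQ against MI median of 0.49 was 0.25 with lowess, 0.20 after quantile normalization and 0.33 with the mean of all probe sets. With lowess, members at least 1.5-fold higher numbered 5 in MI against WT (2 as deposited) and 5 in RQ against MI (11), with 2 lower in RQ against MI (0). After quantile normalization these counts were 6, 5 and 2, and 3 members were lower in MI against WT (5). The shares over all genes after quantile normalization were 2.85%, 3.48%, 2.39% and 3.47%, in the same order. Centring on array medians left 1 higher in MI (background 1.01%). The mean of all probe sets left 5 higher in RQ against WT (9 as deposited), with a background of 2.7%. A limit of 1.2-fold gave 23 higher and 2 lower in RQ against WT, 9 and 11 in MI against WT, and 27 and 1 in RQ against MI. Among the 11969 genes with a mean signal at or above the median, the shares at 1.2-fold were 19% and 12%, 15% and 21%, and 25% and 12%, in the same order. A limit of 2-fold gave 2 higher in RQ against WT, 1 higher and 0 lower in MI against WT, and 4 higher in RQ against MI. The shares over all genes at 2-fold were 1.13%, 0.363%, 1.71% and 1.39%, in the same order. Mcm10 turned to -0.039 in RQ against WT with probe sets not marked as matching several transcripts, a rule that leaves 35 members. No scaling moved the median of all genes by more than 0.1. No paired analysis was possible because each genotype had 1 array, and for the same reason no array could be left out.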

Other observations

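Outside the replication list, 533 array genes with a promoter window used here held an E2F word and 13802 did not. In RQ against WT, 8.82% of the genes with the word were at least 1.5-fold higher and 3.56% lower, with a median of 0.04. Genes without the word had 4.7% higher and 3.11% lower, with a median of -0.00. The genes with the word also had stronger signals, with a median of mean signals of 6.99 against 6.64. In MI against WT the shares were 1.88% higher and 6.75% lower with the word, and 1.38% and 5.89% without it.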
